A study of Homo sapiens with 6 samples.

Results

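A group of 10 long noncoding RNAs was followed in cells labelled HepG2, with and without knockdown of ARHGEF2. They were chosen by gene name as nuclear long noncoding RNAs (MALAT1, NEAT1 and TUG1) and as host RNAs of small nucleolar RNAs (GAS5, SNHG1, SNHG5, SNHG8, ZFAS1, EPB41L4A-AS1 and DANCR). All 10 were found among the 27605 genes of the table, and all 10 passed the filter of a mean of at least 0.5 FPKM, a level given as fragments scaled to gene length and library depth. HepG2 is a human liver cancer line. The libraries came from cells given lentivirus, carrying either a control hairpin (shNC, labelled wild type) or one directed at ARHGEF2 (shARHGEF2, labelled ARHGEF2 knockdown), with n = 3 libraries in each group. RNA was selected with oligo(dT) beads, and the comparison asks how the transcriptome differs when ARHGEF2, an exchange factor for the GTPase RhoA, is depleted. The labels do not say how many hairpins or clones were used, nor whether the libraries came from separate cultures, so the p-values below measure only the spread between these libraries.

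MALAT1 is retained in nuclear speckles, where splicing factors collect. Its 3′ end is cut by RNase P and protected by a triple helix instead of a poly(A) tail. NEAT1 is the scaffold of paraspeckles, nuclear bodies built with proteins such as NONO and SFPQ, and TUG1 is a widely expressed RNA found in the nucleus and the cytoplasm. The host RNAs carry small nucleolar RNAs (snoRNAs) in their introns. The snoRNAs guide chemical modification of ribosomal RNA and other RNAs, while the spliced host RNA is exported and, for many hosts, removed by nonsense-mediated decay, a pathway that depends on translation. Many hosts begin with a C followed by a run of pyrimidines, the 5′ terminal oligopyrimidine start also used by ribosomal protein genes.

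The annotated starts of 6 members are shown because the hosts differ there, DANCR among them, the member with the smallest p below. RefSeq (GRCh38.p14) had a promoter entry for 9 of the 10 members, with 10 starts in all, and NEAT1 had none. Each line gives 40 bases before the annotated start and 20 bases from it, 5′ to 3′ on the strand of the gene. Capitals mark CTTT with its first base from position -4 to 4 around the start, and TATAA with its first base from -40 to -20.
SNHG5, chr6:85678714-85678773, minus strand: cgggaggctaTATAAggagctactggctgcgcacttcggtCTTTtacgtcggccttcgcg
ZFAS1, chr20:49278602-49278661, plus strand: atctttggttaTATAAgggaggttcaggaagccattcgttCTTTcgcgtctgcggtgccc
SNHG8, chr4:118278722-118278781, plus strand: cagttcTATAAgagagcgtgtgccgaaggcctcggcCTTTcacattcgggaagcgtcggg
SNHG1, chr11:62855866-62855925, minus strand: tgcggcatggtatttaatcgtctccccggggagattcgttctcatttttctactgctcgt
DANCR, chr4:52712354-52712413, plus strand: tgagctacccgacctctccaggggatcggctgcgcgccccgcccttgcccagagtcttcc
MALAT1, second start, chr11:65499005-65499064, plus strand: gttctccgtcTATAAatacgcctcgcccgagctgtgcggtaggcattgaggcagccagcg

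CTTT stood at the start of 3 members, SNHG5, ZFAS1 and SNHG8, against 4.86% of the 35116 promoters of the RefSeq table and 42.0% of the 81 with RPL or RPS symbols. TATAA stood in the window of 4 members, the same 3 hosts and the second start of MALAT1, against 3.91% of all promoters. On the opposite strand, CTTT was found in 0 members and TATAA in 1, against 2.70% and 1.73% of all promoters. In SNHG8 the CTTT had its first base at -4 and so ended before the annotated start. The DANCR and SNHG1 windows held neither string. Nor did the GAS5 window, chr1:173869026-173869085 on the minus strand. That window lies outside the range given for GAS5 below, chr1:173863900-173868882, so a start within that range was not searched. These matches describe letters in a window, and none of the factors that could bind there was measured.

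The knockdown was checked first. ARHGEF2 was listed at 13.03, 14.4 and 13.9 FPKM in the shNC libraries and at 4.25, 4.004 and 4.82 FPKM in the shARHGEF2 libraries (log2 fold change -1.47, SE 0.11, adjusted p = 0.00244, limma on log2(FPKM + 1)). Depth was not given. From the spacing of low values it was estimated at 39800000 to 46330000 counting units per library, although only 42.3% to 44.2% of the low values used fell within 0.1 of a whole number of units, where 20% would by chance. The liver label was checked against 17 hepatocyte genes, of which 11 were found in the table and 1, VTN, reached 1 FPKM. The liver markers AFP, APOA1, HNF4A and SERPINA1 were at most 0.248 FPKM in all 6 libraries. These values go against the label of a liver line, and HepG2 is used here only as the labels give it. The summed level of the 11 genes was 6.02 to 6.24 FPKM in shNC and 6.72 to 7.70 FPKM in shARHGEF2. The epithelial gene SFN led a list of 7 keratinocyte markers, 2 of which reached 1 FPKM, with a summed level of 207 to 251 FPKM in shNC and 275 to 307 FPKM in shARHGEF2. Of the fibroblast markers 4 of 6 reached 1 FPKM, led by LUM (39.8 to 52.7 FPKM summed in shNC, 38.7 to 45.6 in shARHGEF2), as did 0 of 5 endothelial markers, led by PECAM1 (0.591 to 0.670 and 0.801 to 0.904), and 1 of 6 immune markers, CD68 (60.6 to 88.0 and 75.3 to 85.7). The part of these genes in the results below was not tested, and in bulk RNA fewer cells of a type and less RNA per cell cannot be told apart.

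The members are often called abundant, but on this scale most were not. GAS5 was the highest, with a mean of 34.3 FPKM over the 6 libraries, 16th among the 5986 genes annotated as lncRNA and 1322nd among all genes. ZFAS1 followed at 7.07 FPKM and EPB41L4A-AS1 at 4.33 FPKM. These 3 were the members above 3.96 FPKM, the median of the 12291 tested genes. MALAT1, SNHG8 and DANCR lay close together at 3.23, 3.19 and 3.15 FPKM, and SNHG1 stood at 2.35 FPKM. SNHG5, TUG1 and NEAT1 were lowest at 1.26, 1.15 and 0.663 FPKM. A total of 9 members exceeded 1.05 FPKM, the median of the 821 tested lncRNA genes. Of neighbours in this order, GAS5 and ZFAS1 did not overlap in any library, nor did SNHG1 and SNHG5, whose nearest values were 1.89 and 1.83 FPKM. All other neighbours overlapped over the 6 libraries. The imprinted RNA H19 stood at 1082 to 1229 FPKM in the same libraries.

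A gene's FPKM here is set by the length the authors' tool gave it. The table does not give that length, so it was sought in 2258 genes with 2 listed transcripts. Their 9177 values above 0 and up to 5 FPKM were multiplied by the union of both transcripts' exons and divided by the length of 1 transcript. In 16.9% the outcome was a number of 6 decimals, within 0.005 of the last decimal, against 2.15% when the union was made 7 nt longer. The unit was therefore taken as per kilobase of all listed exons, which the other values do not test. For MALAT1 that union was 8829 nt, for TUG1 10151 nt and for NEAT1 22767 nt. For the hosts it ran from 923 nt for SNHG8 to 3741 nt for SNHG1, which had 44 listed transcripts. At the estimated depths MALAT1 stood for 745 to 1904 counting units per library and TUG1 for 262 to 818. The selection with oligo(dT) bears on MALAT1 and the long form of NEAT1, which lack an ordinary poly(A) tail, and its effect on their level was not tested.

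**Figure D1:**
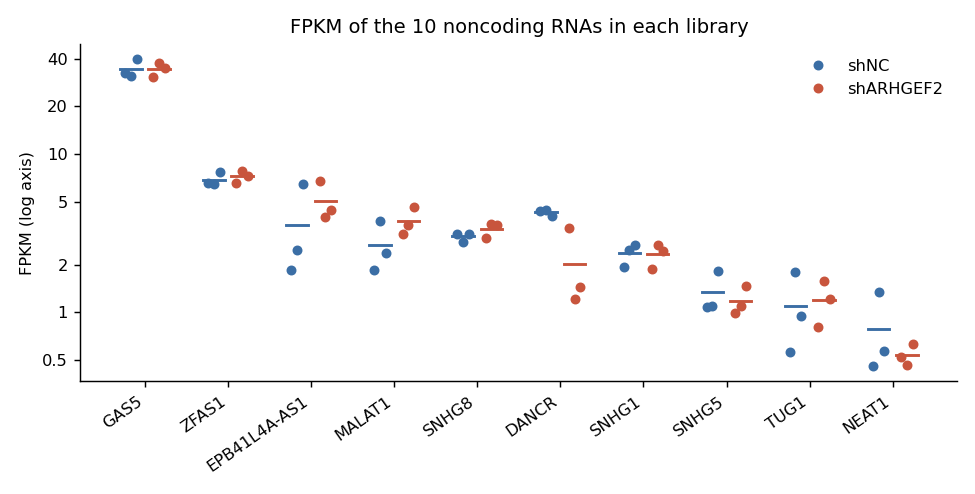
FPKM (log axis) of the 10 noncoding RNAs in each library. Points are the 3 shNC (blue) and 3 shARHGEF2 (red) libraries and bars are group means. GAS5 lies above all others at 30.7 to 39.7 FPKM, and DANCR is the member whose groups do not overlap.

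Between shARHGEF2 and shNC, 0 of the 10 members passed an adjusted p of 0.05 in limma, where 34 of 12291 tested genes did (0.277%; 0.195% higher and 0.0814% lower). At an unadjusted p under 0.05 limma counted 1 member, DANCR, against 13.7% of tested genes, and no member reached p under 0.05 in the exact permutation test, whose smallest two-sided p for 3 libraries against 3 is 0.1. By sign alone 6 members were higher and 4 lower. Their median log2 fold change was 0.03, beside -0.00 over all tested genes, of which 6102 were higher and 6189 lower. The groups did not overlap for 1 member, against 20.5% of tested genes in either direction and 9.17% in its own, lower.

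DANCR (ENSG00000226950, chr4:52712404-52720351, plus strand, GRCh38) is the host of SNORA26 and is also known for holding back differentiation of progenitor cells. It was listed at 4.40, 4.41 and 4.05 FPKM in the shNC libraries and at 3.41, 1.21 and 1.44 FPKM in the shARHGEF2 libraries. All 3 shARHGEF2 libraries lay below all 3 shNC libraries, and replicate 1 lay much nearer to shNC than the other two. The mean went from 4.29 ± 0.205 to 2.02 ± 1.21 FPKM (SD, n = 3 each), a ratio of 0.471. The log2 fold change of FPKM + 1 was -0.88 (SE 0.24, 95% interval -1.44 to -0.32, unadjusted p = 0.00658 and adjusted p = 0.181 in limma, exact permutation p = 0.1). In limma it ranked 445th of the 12291 tested genes by p, so DANCR did not pass the threshold. Without shARHGEF2 replicate 1 it did, at -1.19 (adjusted p = 0.0196, limma). The unadjusted p stayed under 0.05 in all 14 alternatives, with adjusted p from 0.0196 to 0.514 (limma). USP46, the nearest coding gene listed, lies 53.1 kb away on the opposite strand and was under the filter, at 0.337 to 0.561 FPKM.

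EPB41L4A-AS1 (ENSG00000224032, chr5:112160526-112164276, plus strand), the host of SNORA13, varied most among the shNC libraries. It was listed at 1.86, 2.48 and 6.43 FPKM in shNC and at 6.78, 4.01 and 4.42 FPKM in shARHGEF2. Replicate 3 of shNC sat with the shARHGEF2 libraries, and the groups overlapped. The log2 fold change was 0.51 (SE 0.37, 95% interval -0.39 to 1.401, adjusted p = 0.617, limma). Without shNC replicate 3 it was 0.92 (unadjusted p = 0.00320, adjusted p = 0.104, limma), and without shNC replicate 1 it was 0.23. The gene lies wholly within EPB41L4A on the opposite strand. Whether the authors' counting used strand is not given in the sources used here, so reads of the 2 genes may not be told apart, but EPB41L4A itself was listed at only 0.219 to 0.626 FPKM.

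In the other 5 hosts the groups overlapped. GAS5 (ENSG00000234741, chr1:173863900-173868882, minus strand), a growth-arrest RNA with a large set of box C/D snoRNAs, was listed at 32.4, 30.9 and 39.7 FPKM in shNC and at 30.7, 37.5 and 34.9 FPKM in shARHGEF2. Its means were 34.3 FPKM in both groups (log2 fold change 0.00, 95% interval -0.27 to 0.28, adjusted p = 0.996, limma). On the FPKM + 1 scale this interval spans ratios from 0.827 to 1.21, so a change within those bounds remains possible. GAS5 overlaps ZBTB37 by 801 nt on the opposite strand, and ZBTB37 was listed at no more than 0.0897 FPKM.

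ZFAS1 (ENSG00000177410, chr20:49278178-49295738, plus strand), the host of the SNORD12 family, was listed at 6.53, 6.50 and 7.69 FPKM in shNC and at 6.61, 7.81 and 7.30 FPKM in shARHGEF2 (log2 fold change 0.06, 95% interval -0.20 to 0.32, adjusted p = 0.874, limma). SNHG8 (ENSG00000269893, chr4:118278709-118279823, plus strand), which carries SNORA24, was listed at 3.14, 2.78 and 3.14 FPKM in shNC and at 2.93, 3.61 and 3.56 FPKM in shARHGEF2 (0.12, interval -0.16 to 0.39, adjusted p = 0.735, limma). These are 2 of the 3 members with CTTT at the start, and both intervals included 0, as did those of all members but DANCR. ZFAS1 overlaps ZNFX1 by 249 nt on the opposite strand. ZNFX1 was listed at 7.49 to 11.3 FPKM in shNC and 6.16 to 7.88 FPKM in shARHGEF2, and whether reads of one were counted for the other was not tested.

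SNHG1 (ENSG00000255717, chr11:62851988-62855914, minus strand), the host of SNORD22 and SNORD25 to SNORD31, was listed at 1.94, 2.49 and 2.66 FPKM in shNC and at 1.89, 2.67 and 2.44 FPKM in shARHGEF2 (log2 fold change -0.01, interval -0.34 to 0.31, adjusted p = 0.984, limma). SNHG5 (ENSG00000203875, chr6:85660950-85678748, minus strand), the host of SNORD50A and SNORD50B, was listed at 1.08, 1.10 and 1.83 FPKM in shNC and at 0.987, 1.10 and 1.46 FPKM in shARHGEF2 (-0.09, interval -0.44 to 0.27, adjusted p = 0.862, limma). In both genes the groups overlapped. The sign for GAS5 and SNHG1 turned with the scaling. GAS5 was at -0.02 after quantile normalization, and SNHG1 at 0.01 after scaling to an equal sum.

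**Figure D2:**
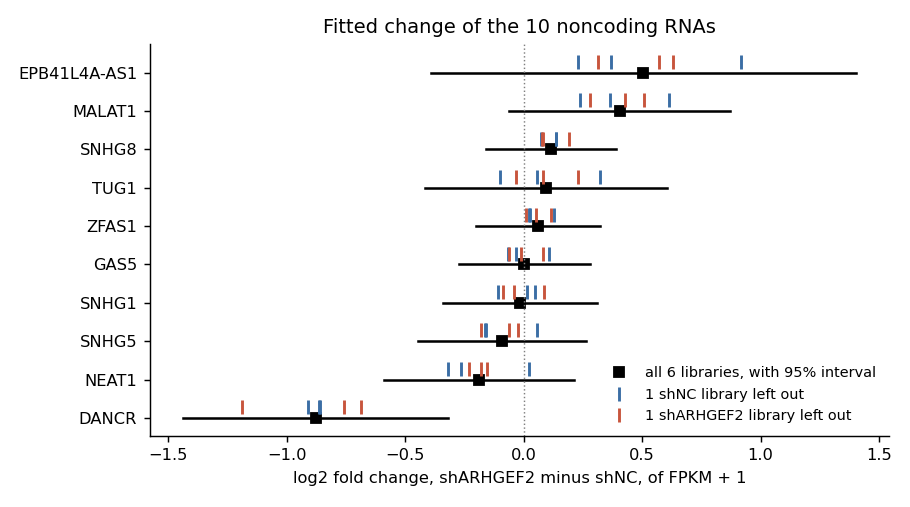
Fitted log2 fold change (x axis, shARHGEF2 minus shNC, of FPKM + 1) of the 10 noncoding RNAs. Black squares and lines are the estimate from all 6 libraries and its 95% interval, and ticks are the estimates with 1 shNC (blue) or 1 shARHGEF2 (red) library left out. The interval of DANCR, from -1.44 to -0.32, is the one that does not include 0.

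The 3 nuclear RNAs also varied between libraries of the same group, and the highest shNC value was 2.05 times the lowest for MALAT1, 2.91 times for NEAT1 and 3.21 times for TUG1. MALAT1 (ENSG00000251562, chr11:65497688-65506516, plus strand) was listed at 1.84, 3.78 and 2.38 FPKM in shNC and at 3.12, 3.59 and 4.65 FPKM in shARHGEF2. One shNC library, replicate 2, lay above 2 of the shARHGEF2 libraries. The log2 fold change was 0.41 (SE 0.21, 95% interval -0.06 to 0.87, adjusted p = 0.431, limma; exact permutation p = 0.3). Without shNC replicate 2 it was 0.61 (unadjusted p = 0.00872, adjusted p = 0.296, limma), and without shNC replicate 1 it was 0.24. With a trend on GC content removed from each library it was 0.43 (unadjusted p = 0.0296, adjusted p = 0.214, limma).

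NEAT1 (ENSG00000245532, chr11:65422774-65445540, plus strand) was listed at 0.459, 1.34 and 0.571 FPKM in shNC and at 0.522, 0.463 and 0.628 FPKM in shARHGEF2. Replicate 2 of shNC was over 2 times every other library. The log2 fold change was -0.19 (95% interval -0.59 to 0.21, adjusted p = 0.701, limma) and turned to 0.02 without that library. TUG1 (ENSG00000253352, chr22:30969245-30979395, plus strand) was listed at 0.563, 1.81 and 0.948 FPKM in shNC and at 0.809, 1.59 and 1.21 FPKM in shARHGEF2 (0.09, interval -0.42 to 0.60, adjusted p = 0.904, limma). Its highest library in each group was replicate 2. Without shNC replicate 1 its value was -0.10, and without shNC replicate 2 it was 0.32.

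Library differences were shared by several members. In shNC replicate 1, 4 of the 10 members had their lowest value and none its highest, and the median deviation of the 3 nuclear RNAs from their means over the 6 libraries was -0.43 on the log2(FPKM + 1) scale. In shNC replicate 2 that median was 0.41. The median of the 7 hosts was -0.10 in both libraries and 0.21 in shNC replicate 3. Genes of low GC content moved in the same libraries. Genes at or below 40.5% GC, the lowest-GC decile, had a median deviation of -0.12 in shNC replicate 1 and 0.18 in shNC replicate 2, of -0.20 in shARHGEF2 replicate 1 and of 0.16 in shARHGEF2 replicate 2. MALAT1, at 39.7% GC, belongs to them and TUG1 is at 41.8%, while DANCR is the member richest in GC, at 54.0%. Over 12231 genes, the deviation in shNC replicate 2 had a Spearman correlation of -0.47 with GC content. In that library NEAT1, at 45.7% GC, had the highest deviation of the members, 0.51. GAS5 and SNHG5, at 43.5% and 43.4% GC, deviated by -0.14 and -0.10. Whether GC content lies behind the library differences of the members was not tested. With the GC trend removed DANCR was at -0.88 (adjusted p = 0.153, limma), NEAT1 at -0.16 and TUG1 at 0.12, fold changes close to those above. The SE fell from 0.22 to 0.15 for TUG1, 0.21 to 0.16 for MALAT1, 0.18 to 0.14 for NEAT1 and 0.14 to 0.098 for SNHG1. It also fell for SNHG8 and ZFAS1, and it rose for GAS5, SNHG5, EPB41L4A-AS1 and DANCR (0.24 to 0.25).

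**Figure D3:**
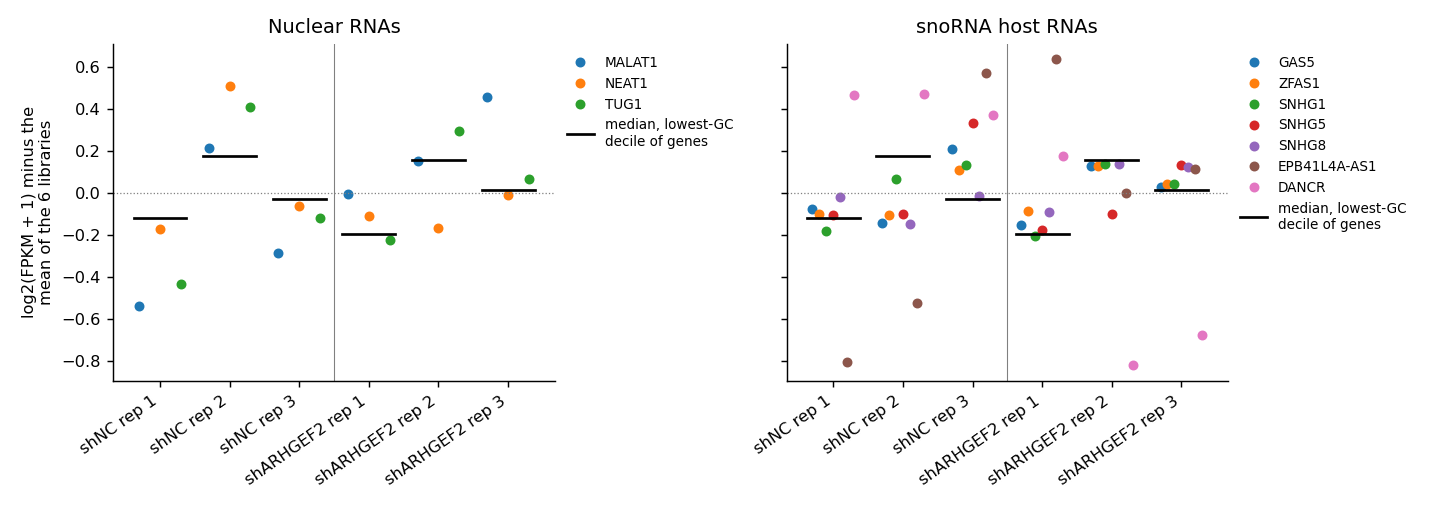
Deviation of each noncoding RNA from its mean over the 6 libraries (y axis, log2(FPKM + 1)), nuclear RNAs on the left and snoRNA hosts on the right. Points are genes, offset sideways for legibility, and black bars are the median of the decile of genes with the lowest GC content. DANCR lies at -0.82 and -0.68 in shARHGEF2 replicates 2 and 3. The median of the nuclear RNAs lies furthest from 0 in shNC replicates 1 and 2, at -0.43 and 0.41.

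Genes of the same pathways were counted to show the members beside them. Of 16 tested noncoding hosts outside the members, 9 were higher and 7 lower by sign, with a median log2 fold change of 0.03, and 0 passed the adjusted test (0 at an unadjusted p under 0.05, limma). The highest was SNHG32 (62.4 to 87.2 FPKM in shNC, 65.0 to 97.2 in shARHGEF2), followed by SNHG6 (66.8 to 80.8 and 68.7 to 90.8) and SNHG19 (29.6 to 43.6 and 28.9 to 33.0). SNHG32 and SNHG6 were thus above GAS5, and SNHG19 was level with it, with a mean of 34.7 FPKM over the 6 libraries against 34.3 FPKM. The smallest unadjusted p among these hosts belonged to SNHG3 (log2 fold change 0.26, adjusted p = 0.402, limma) and SNHG19 (-0.31, adjusted p = 0.411, limma).

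Of 20 tested protein-coding hosts, 7 were higher and 13 lower by sign, with a median of -0.06. None passed the adjusted test, and 3 were lower at an unadjusted p under 0.05 (limma), against 5.55% of tested genes. EIF4A1, the helicase of the cap-binding complex, was listed at 70.0, 77.2 and 83.4 FPKM in shNC and at 55.7, 50.8 and 50.4 FPKM in shARHGEF2 (log2 fold change -0.54, SE 0.10, adjusted p = 0.0721, limma). PPAN, a ribosome assembly factor, was at -0.63 (adjusted p = 0.199, limma), and EEF1B2, a translation elongation factor subunit, at -0.24 (adjusted p = 0.304, limma). The groups did not overlap for these 3 of the 20 tested, against 9.17% of tested genes in this direction, and 0 of the 20 separated higher. The 3 are those already counted by p, so this is not a separate result. Both EIF4A1 and PPAN overlap a readthrough gene that is listed separately. SENP3-EIF4A1 was listed at 2.77, 2.53 and 1.83 FPKM in shNC and at 21.3, 36.1 and 43.9 FPKM in shARHGEF2 (log2 fold change 3.32, SE 0.25, adjusted p = 0.00554, limma), the opposite direction to EIF4A1. PPAN-P2RY11 overlapped between groups (0.50, SE 0.62, adjusted p = 0.803, limma). These genes share exons, so how the authors' tool divided reads between them is uncertain, and the lower values of EIF4A1 and PPAN are uncertain with it. EEF2 (1047 to 1239 FPKM in shNC, 1129 to 1164 in shARHGEF2) and RACK1 (79.7 to 107 and 79.4 to 93.1) overlapped between groups.

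The snoRNAs inside the members could not be followed. Of 26 listed symbols 13 were found, and 3 passed the filter with values that spread widely. SNORA24, inside SNHG8, was listed at 1.05, 3.11 and 1.897 FPKM in shNC and at 2.49, 0.0109 and 0.267 FPKM in shARHGEF2 (log2 fold change -0.82, 95% interval -2.14 to 0.51, adjusted p = 0.577, limma). SNORD22 ran from 0.00494 to 5.13 FPKM over the 6 libraries, and SNORD26 from 0.0292 to 2.11. Libraries made with oligo(dT) do not capture mature snoRNAs, which have no poly(A) tail.

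Among 17 tested proteins of snoRNA particles and their assembly, 4 were higher and 13 lower by sign, with a median of -0.05, and 0 passed the adjusted test (limma). The 2 at an unadjusted p under 0.05 were both lower. Over all tested genes 13.7% were under 0.05 in either direction and 5.55% in this one (limma). NAF1, an assembly factor of box H/ACA particles, was listed at 2.71, 3.13 and 2.58 FPKM in shNC and at 1.74, 2.00 and 1.80 FPKM in shARHGEF2 (log2 fold change -0.42, adjusted p = 0.181, limma). NOP10, a core H/ACA protein, was at -0.20 (adjusted p = 0.363, limma). NHP2, another core H/ACA protein, was at 200 to 230 FPKM in shNC and 194 to 206 in shARHGEF2. Fibrillarin (FBL), the methyltransferase of box C/D particles, was at 104 to 138 and 121 to 124 FPKM. Of 13 tested factors of nonsense-mediated decay, 6 were higher and 7 lower, with a median of -0.00 and 0 passing the adjusted test. The exon junction protein CASC3 was at -0.30 (unadjusted p = 0.0274, limma). It was the only one of these under 0.05 unadjusted, against 5.55% of tested genes in this direction. The helicase UPF1 was at 0.19 (adjusted p = 0.573, limma), and SMG5 and EIF4A3 at -0.06 and 0.08.

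Of 12 tested paraspeckle proteins, 4 were higher and 8 lower by sign, with a median of -0.05, and 0 passed either threshold in limma. NONO was listed at 43.9, 69.6 and 56.1 FPKM in shNC and at 43.2, 37.1 and 58.9 FPKM in shARHGEF2 (-0.28, adjusted p = 0.617, limma). HNRNPK was at -0.03 and DAZAP1 at -0.08. TARDBP had the smallest p (-0.91, SE 0.43, adjusted p = 0.426, limma), with shNC replicate 1 at 3.16 FPKM beside 12.95 and 8.57 in the other shNC libraries. PSPC1 was at -0.25 (adjusted p = 0.470, limma). It was the 1 of the 12 whose groups did not overlap, against 9.17% of tested genes in this direction.

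Of 11 tested genes for nuclear speckles and for the end of MALAT1, 1 was higher and 10 lower by sign, with a median log2 fold change of -0.27. None passed the adjusted test. At an unadjusted p under 0.05 limma counted 5 lower and 1 higher, against 5.55% and 8.1% of tested genes. METTL16, a methyltransferase that binds the MALAT1 triple helix, was listed at 2.62, 3.88 and 3.39 FPKM in shNC and at 1.24, 1.16 and 1.97 FPKM in shARHGEF2, with no overlap (log2 fold change -0.81, SE 0.17, adjusted p = 0.114, limma). SRSF2 was listed at 21.5, 24.0 and 17.5 FPKM in shNC and at 15.8, 16.1 and 15.2 FPKM in shARHGEF2 (-0.39, adjusted p = 0.230, limma). The others under 0.05 were the splicing factors SRSF3, SRSF5 and SRRM1, all lower, and SRSF11, which was higher at 0.34 (adjusted p = 0.347, limma). SRRM2 was at -0.27, and ELAC2, the RNase Z that trims the small RNA cut from MALAT1, was at -0.05. The count of lower genes at an unadjusted p under 0.05 was 2 without shNC replicate 2 and 3 without shARHGEF2 replicate 2.

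**Figure D4:**
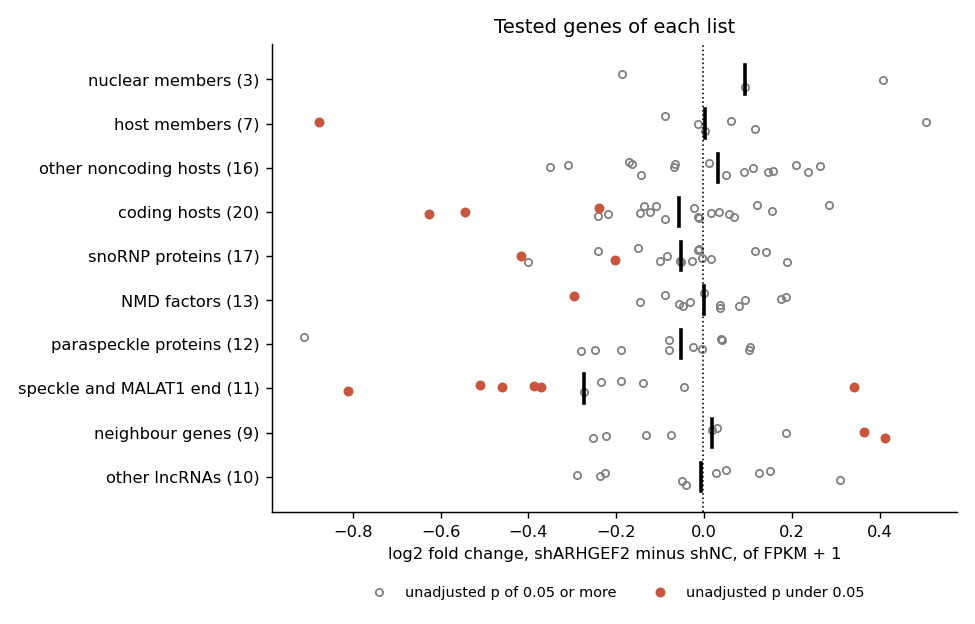
Log2 fold change (x axis, shARHGEF2 minus shNC, of FPKM + 1) of the tested genes of each list, with the number tested in brackets. Filled red points have an unadjusted limma p under 0.05, thick bars are list medians, and the dotted line is the median of all tested genes. No gene shown passed an adjusted p of 0.05. Among the lists shown, that of speckle and MALAT1 end genes has the lowest median, -0.27. The snoRNAs inside the members and the cell type markers are not shown.

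The genes beside the members were also counted. Of 9 tested neighbours 5 were higher and 4 lower by sign, with a median of 0.02 and 0 passing the adjusted test. The 2 at an unadjusted p under 0.05 (limma) were both higher, against 8.1% of tested genes. They lie near MALAT1 and NEAT1 on chromosome 11. Both were higher in every shARHGEF2 library than in any shNC library. They were the 2 of the 9 tested neighbours that separated, against 11.3% of tested genes in this direction. As the same 2 were already counted by p, this is not a separate result. LTBP3, a binding protein of latent TGF-β, lies 32.3 kb from MALAT1 and was listed at 5.51, 4.81 and 5.77 FPKM in shNC and at 7.70, 7.63 and 7.04 FPKM in shARHGEF2 (log2 fold change 0.41, SE 0.11, adjusted p = 0.166, limma). FRMD8, 9.25 kb from NEAT1, was at 0.36 (adjusted p = 0.264, limma). NEAT1 lies between FRMD8 and MALAT1, and its own groups overlapped.

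The other tested neighbours, those of hosts and of TUG1, ran from -0.25 to 0.19. SLC3A2, whose gene starts 0.187 kb from SNHG1 on the opposite strand, was at -0.22 (adjusted p = 0.419, limma), and WDR74 at -0.07. PRSS12, 0.214 kb from SNHG8, was at 0.19, and MORC2, 0.946 kb from TUG1, at 0.02. ZNFX1 was at -0.25, and SYNCRIP and SNX14, on the side of SNHG5, at -0.13 and 0.03. None of these 7 reached an unadjusted p of 0.05 in limma.

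**Figure D5:**
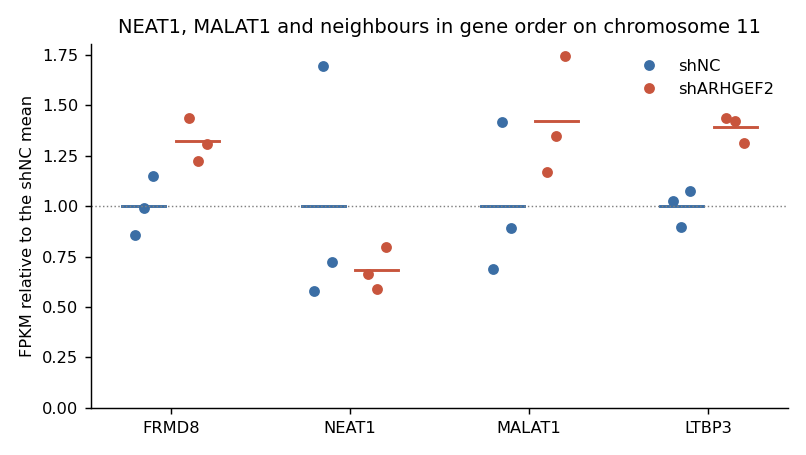
FPKM relative to the shNC mean of each gene (y axis from 0) for NEAT1, MALAT1 and 2 coding neighbours in their order on chromosome 11. Points are the 3 shNC (blue) and 3 shARHGEF2 (red) libraries and bars are group means. The groups separate for FRMD8 and LTBP3 and overlap for NEAT1 and MALAT1.

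Other long noncoding RNAs in a list of 26 were also set beside the members. Of the 10 tested, 5 were higher and 5 lower by sign, with a median of -0.01, and 0 passed either threshold in limma. H19 was at -0.04 (adjusted p = 0.887, limma). NORAD, a cytoplasmic RNA that binds Pumilio proteins, was listed at 15.7, 24.6 and 20.5 FPKM in shNC and at 16.4, 24.5 and 20.9 FPKM in shARHGEF2. Replicate 1 of each group was its lowest library, as for TUG1. UCA1 was at 0.13, and the smallest unadjusted p belonged to MIR22HG (0.31, adjusted p = 0.407, limma) and HOTTIP (-0.24, adjusted p = 0.438, limma).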

How the data were processed

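Poly(A)-selected RNA of 6 libraries labelled HepG2 (3 shNC, 3 shARHGEF2) was sequenced by the authors with a dUTP kit and molecular identifiers. The deposited table holds FPKM per gene and library, computed by the authors. Their ratio, its log2, p and adjusted p columns were not used. The submitters' processing notes name cutadapt 1.9, HISAT2 2.0.4, UMI-tools, StringTie 1.3.4d, DESeq2, edgeR and hg19. Which tool made the FPKM, the annotation and the strand setting are not given in the sources used here. Of 112516 listed transcripts, 94.7% were found in GENCODE 29 (GRCh38), which gave positions, lengths and GC content. Positions are therefore of GRCh38, and no file coordinate was used.

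Groups were compared with limma 3.58.1 (R 4.3.3, statmod 1.5.0) on log2(FPKM + 1), with a variance trend and robust estimation, for the 12291 genes whose mean reached 0.5 FPKM. Fold changes on this scale understate those of low genes. Adjustment was by Benjamini-Hochberg over all of them, with calls at 0.05. Members were also compared by exact two-sided permutation tests (SciPy 1.17.1). The method was tested on simulated data. Depths were estimated only, so no counting interval was given.

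After the group mean of each gene was subtracted, the deviations of same-numbered libraries correlated at 0.184, 0.159 and -0.105. These libraries were not treated as pairs. Alternatives were a replicate block, another pseudocount (0.1), 2 other filters, quantile and equal-sum scaling, plain variances, a GC trend removed (loess, span 0.3) and each library left out. Named genes were all members, ARHGEF2, members' neighbours, from each list any gene called, the 3 highest and the 2 with the smallest p, and the highest of each marker list. SRSF3, SRSF5, SRRM1, SRSF11, the readthrough genes SENP3-EIF4A1 and PPAN-P2RY11 and the low liver markers fall outside it and were named after their values were seen. The members and lists were chosen with earlier results of these data known. A few genes of the lists are not reported here and were left out of the counts.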

Additional observations from a re-analysis of the deposited data

How the results depend on the processing

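The number of genes called over the whole table was 34. It was 1 with no filter beyond a mean above 0, 54 with at least 1 FPKM in at least 3 libraries, 19 after quantile normalization, 7 without trend and robust variances and 63 with the GC trend removed, and ran from 6 to 102 with 1 library left out, the highest without shNC replicate 3. With a replicate block it was 0 (1976 at an unadjusted p under 0.05, limma), and ARHGEF2 was at -1.47 with an adjusted p of 0.0716, as it was at -1.47 with an adjusted p of 0.0701 without the filter. The block changed no call of a member, but it changed their SE. The SE fell from 0.22 to 0.11 for TUG1, 0.16 to 0.093 for SNHG5 and 0.14 to 0.094 for SNHG1. It fell less for the other members, except EPB41L4A-AS1, where it rose from 0.37 to 0.39. The intervals given above are those without the block. The members called ran from 0 to 1 with 1 library left out, the 1 being DANCR without shARHGEF2 replicate 1, and were 0 under all other alternatives. Signs turned for members near 0. GAS5 was at -0.021 after quantile normalization, and SNHG1 at 0.011 after scaling to an equal sum and at 0.0090 with the GC trend removed. With 1 library left out GAS5 ran from -0.066 to 0.11, SNHG1 from -0.11 to 0.085, SNHG5 from -0.18 to 0.056, TUG1 from -0.10 to 0.32 and NEAT1 from -0.32 to 0.021. DANCR, EPB41L4A-AS1, MALAT1, SNHG8 and ZFAS1 kept their sign in all 14 alternatives. NEAT1 did not pass the filter of at least 1 FPKM in at least 3 libraries. Calls in the lists of other genes were 0 throughout.

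With 3 libraries a group the 95% interval of single members was narrowest for ZFAS1 (-0.20 to 0.32) and widest for EPB41L4A-AS1 (-0.39 to 1.401). Differences within a member's interval remain possible. Dixon's test was not applied to groups of 3.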

Other observations

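Of the 821 tested genes annotated as lncRNA, 2 passed an adjusted p of 0.05 in limma, both higher in shARHGEF2 and neither a member. They were named after their values were seen. LINC01273 was listed at 1.36, 1.23 and 1.48 FPKM in shNC and at 4.40, 3.75 and 3.10 FPKM in shARHGEF2 (log2 fold change 1.00, SE 0.13, adjusted p = 0.0302). AL355075 was listed at 338, 316 and 397 FPKM in shNC and at 576, 557 and 544 FPKM in shARHGEF2 (0.68, SE 0.10, adjusted p = 0.0420). The next by p were lower and did not pass, PICSAR at -0.64 (adjusted p = 0.0979) and KANSL1-AS1 at -0.69 (adjusted p = 0.105), all in limma. Over the 821 genes, 427 were higher and 394 lower by sign, with a median log2 fold change of 0.01. The number called among them was 0 with a replicate block, with no filter and with plain variances, 1 after quantile normalization, 2 under the other scalings, filters and pseudocount, and ran from 0 to 6 with 1 library left out, the 6 without shNC replicate 3 and 0 without shNC replicate 1 or shARHGEF2 replicate 2 or 3.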
